A study of Mus musculus with 40 samples.

Results

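The immediate early genes Egr1, Egr2, Egr3, Ier2, Ier3, Ier5 and Atf3, were followed through 20 groups of cultured mouse melanoma cells in which Bmal1 (gene symbol Arntl), the activating partner of Clock in the circadian clock, was deleted or ectopically expressed. They were chosen by symbol, 7 of the 51789 genes in the count table, with levels and fold changes of earlier fits of these same libraries known; which of those values led to the choice is not recorded. All 7 were found. Their p-values come from fits over all genes and, because of that choice, are descriptions of these libraries and not independent evidence. Immediate early genes are transcribed within minutes of a growth factor, stress or mechanical signal without the need for new protein. In melanoma cells with mutant Braf, the ERK kinase cascade is constitutively active. ERK phosphorylates ternary complex factors such as Elk1, which bind with serum response factor (SRF) at CArG boxes upstream of the EGR genes. Egr1, Egr2 and Egr3 encode zinc finger transcription factors. Ier2, Ier3 and Ier5 encode small proteins that are not related to one another by a DNA binding domain of the EGR kind, with Ier3 known for its role in cell survival and Ier5 for its part in heat shock factor activity. Atf3 is a bZIP factor induced by stress, among others through Atf4.

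The cells were B16-F10, YUMM2.1 and YUMM1.7. B16.ctr and B16.KO were a control clone and a Bmal1-null clone of B16-F10, 1 clone each. The alleles of YUMM2.1 include Braf V600E, Cdkn2a+/- and a stabilized beta-catenin allele (Bcat STA/+), and the line was given empty vector (YUMM2.1-EV), wild-type Bmal1 (YUMM2.1-WT) or dHLH-Bmal1 (YUMM2.1-dHLH), a mutant without the basic helix-loop-helix domain that cannot bind DNA. The same 3 constructs were put into aC3, a single CRISPR-made Bmal1-null clone of YUMM2.1 (YUMM2.1KO-EV, YUMM2.1KO-WT and YUMM2.1KO-dHLH), and into YUMM1.7 (alleles including Braf V600E and Cdkn2a-/-). The labels write dHLH as bH in these cells and as dH in a further set, in which YUMM2.1 with each construct also carried 1 of 3 hairpins: the control shNC, or shM2 or shM4 against Myh9, the heavy chain of nonmuscle myosin IIA. All constructs came by lentivirus with GFP and all hairpins with puromycin selection. Each group had 2 libraries of 3′ mRNA sequencing, 40 in all, which the labels number as replicates without saying whether they came from separate cultures. The study describes the libraries of B16-F10, of the YUMM2.1 construct lines and of hairpin cells as biological replicates. The hairpin cells it names so are those with empty vector and those with WT-Bmal1 or dHLH-Bmal1 and shNC. It also gives 2 biological replicates for YUMM1.7, without naming a construct. The p-values measure the spread between the 2 libraries of a group, whatever its source.

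All 7 are protein-coding genes (positions in GRCm38, GENCODE M21). Egr1 (ENSMUSG00000038418) lies at chr18:34859823-34864984, Egr2 (ENSMUSG00000037868) at chr10:67535475-67542188 and Egr3 (ENSMUSG00000033730) at chr14:70077203-70082614, each on the plus strand. Ier2 (ENSMUSG00000053560) lies at chr8:84661331-84662852 on the minus strand, Ier3 (ENSMUSG00000003541) at chr17:35821684-35822923 on the plus strand and Ier5 (ENSMUSG00000056708) at chr1:155096361-155099636 on the minus strand. Atf3 (ENSMUSG00000026628), at chr1:191170296-191218039 on the minus strand, is the only 1 that overlaps another annotated gene, the small RNA gene Gm24748 on the other strand. The strand setting of the counting was not given, so reads of the overlap cannot be assigned.

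Library totals ran from 3643332 to 22970049 counts, with a median of 10021164.5. The B16-F10 libraries were the deepest, and the hairpin libraries the most uneven, from 3643332 to 17485144. Levels are CPM, counts scaled to the library's size, after TMM scaling over the 40 libraries. The melanocyte markers Mitf, Sox10, Tyr, Tyrp1, Dct, Pmel and Mlana were all expressed in B16-F10 (summed level 19700 to 26000 CPM). In YUMM2.1 and aC3 only Sox10 and Mitf of the 7 reached a median of 1 CPM, and in YUMM1.7 only Mitf did. Leukocyte markers (4 genes) summed to at most 0.678 CPM and keratinocyte markers (2 genes) to at most 0.485 CPM in any library. Of the fibroblast pair, Pdgfra and Dcn, the sum reached 97.7 to 118 CPM in YUMM1.7 and at most 6.69 CPM elsewhere. The endothelial pair, Pecam1 and Cdh5, summed to between 3.79 and 26.5 CPM across all cells.

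The targeted genes came out as follows. Arntl stood at 15.3 and 10.7 CPM in B16.ctr and at 13.4 and 11.4 CPM in B16.KO, a log2 difference of -0.07 (SE 0.26, adjusted p = 0.92, edgeR). In aC3 with empty vector Arntl was higher than in YUMM2.1-EV by 1.08 (log2, SE 0.19, adjusted p = 0.021). Arntl in YUMM2.1-WT overlapped YUMM2.1-EV (13.9 and 18.1 against 16.02 and 14.0 CPM, log2 0.10, SE 0.24, adjusted p = 1, and 0.10 with the library names discussed below exchanged), and in YUMM2.1KO-WT it was lower than in YUMM2.1KO-EV by 0.83 (log2 -0.83, SE 0.16, adjusted p = 0.0036). It was higher in YUMM2.1-dHLH than in YUMM2.1-EV (log2 1.54, SE 0.24, adjusted p = 0.0095). The counts thus show no more Arntl with WT-Bmal1 in YUMM2.1 or aC3, and whether the constructs carry the counted 3′ end is not given in the sources used here. Reads at the 3′ end of Arntl do not check a deletion that lies elsewhere in the gene, and its position was not given in the sources used here. The study examined Bmal1 protein by immunoblot in the knockout clones of B16-F10 and YUMM2.1 and in the construct lines, and calls these clones Bmal1-null. It reports a modest increase of Bmal1 protein in YUMM2.1-WT and clock function regained in aC3 with WT-Bmal1. Protein and 3′ counts are different measures. Myh9 was lower with shM2 by 1.51 to 2.04 and with shM4 by 0.42 to 0.93 on the log2 scale in the 3 construct backgrounds, past the threshold each time.

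Some libraries stood apart from their labels or from each other. Over 6644 genes, the library labelled YUMM2.1-EV replicate 2 was closer to YUMM2.1-WT replicate 2 (SD of log2 ratios 0.207) than to YUMM2.1-EV replicate 1 (0.410), and YUMM2.1-EV replicate 1 was closest to the library labelled YUMM2.1-WT replicate 1 (0.186). In the table of normalized counts that the study published, these libraries, EV replicate 2 and WT replicate 1, carry each other's names. Counts alone do not tell an exchange of names from a difference shared by libraries of 1 replicate number. Results for the 7 genes that rest on them are therefore given with the names as deposited and also with the names exchanged. The 2 libraries of B16.KO differed most among all replicate pairs, with a chi-square of 96.5 per degree of freedom against 2.68 to 22.2 in the other 19 groups.

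Ier3 was the most abundant of the 7, from 73.4 to 385 CPM over the 40 libraries. Ier5 ran from 10.3 to 113 CPM, Egr1 from 0.0477 to 54.7 CPM, Atf3 from 0.443 to 13.9 CPM and Ier2 from 0.973 to 9.38 CPM. Egr2 ranged from 0 to 9.62 CPM and was at 0 counts in 4 libraries. Egr3 was at 0 counts in 27 of 40 libraries and never had more than 6, so it passed the filter on low counts in no comparison. No fold change is given for it. The other 6 genes passed the filter in the comparisons below, other than Egr2 in the comparisons within B16-F10 and within YUMM1.7. Because reads were taken from transcript ends, levels of different genes are not scaled by length here and are set side by side only as counts of ends. In bulk RNA, fewer expressing cells and less RNA per cell cannot be told apart.

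**Figure D1:**
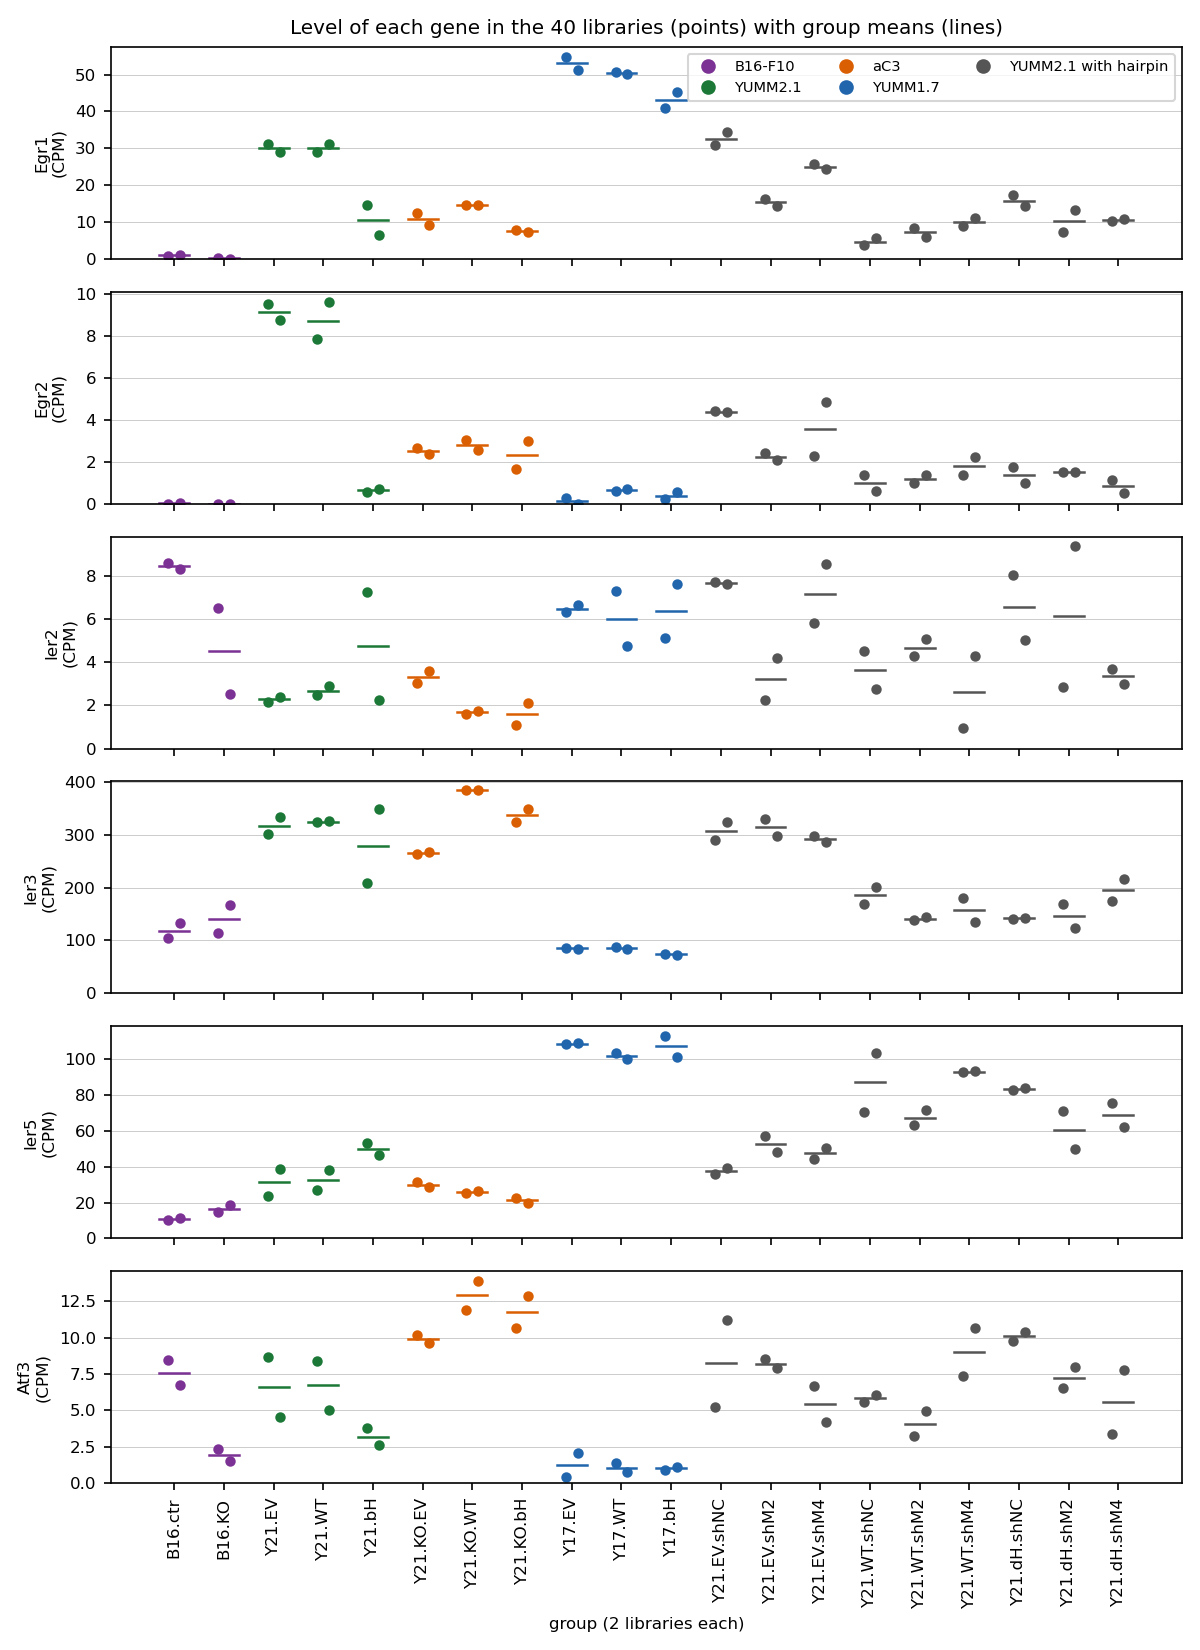
CPM (vertical axis, linear from 0) of 6 genes in the 2 libraries of each of 20 groups (points) with the group mean (line), coloured by cell line. Group names are as deposited: Y21 for YUMM2.1, Y21.KO for aC3, Y17 for YUMM1.7, bH and dH for dHLH-Bmal1. Egr1 is near 0 in B16-F10 and at 40.9 CPM or more in the YUMM1.7 libraries, Egr2 is high in YUMM2.1-EV and YUMM2.1-WT, and Ier3 and Ier5 run in opposite directions between YUMM2.1 and YUMM1.7.

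The cell lines differed most. Egr1 stood at 54.7 and 51.3 CPM in YUMM1.7-EV, at 31.0 and 29.1 CPM in YUMM2.1-EV and at 0.863 and 1.16 CPM in B16.ctr. No 2 of these groups overlapped. Of the 6 genes tested between YUMM1.7-EV and YUMM2.1-EV, all 6 passed the threshold, where 37.1% of all genes did. Egr1 was 1.76-fold higher in YUMM1.7 (log2 0.82, SE 0.16, adjusted p = 0.0033). Ier2 was 2.84-fold higher (adjusted p = 0.0013), and Ier5 3.50-fold higher (adjusted p = 5.3e-05), at 108 and 109 CPM against 23.9 and 38.7 CPM. Ier3 went the other way and was 3.72-fold lower (adjusted p = 2.4e-06), at 86.1 and 83.8 CPM against 300.4 and 333 CPM. Atf3 was 5.38-fold lower (adjusted p = 0.0047), with 0.443 and 2.06 CPM in YUMM1.7-EV and 8.68 and 4.54 CPM in YUMM2.1-EV, and its log2 difference of -2.43 moved to -3.88 without YUMM1.7-EV replicate 2 and to -1.69 without replicate 1. YUMM1.7 thus held more Egr1, Ier2 and Ier5 RNA and less Egr2, Ier3 and Atf3 RNA.

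Egr2 was close to absent in YUMM1.7-EV and B16.ctr. It had 3 counts over the 2 libraries of YUMM1.7-EV, against 195 in YUMM2.1-EV, a ratio of 67.3 with a 95% counting interval of 22.7 to 329 (exact binomial, counting error only). All 3 counts were in replicate 1. In B16.ctr it had 1 count. Against YUMM2.1-EV, 5 of 6 genes tested passed in B16.ctr, where 54.3% of all genes did. Egr1 was 29.8-fold lower by the ratio of counts, with a counting interval of 21.8 to 41.8 (log2 -4.91, SE 0.22, adjusted p = 5.7e-08), Ier3 2.72-fold lower, Ier5 2.93-fold lower and Ier2 3.64-fold higher. B16.ctr and YUMM1.7-EV differed in 4 of the 6 (54.5% of all genes): Egr1 was 52.9-fold and Ier5 10.2-fold lower in B16.ctr, and Atf3 was 5.98-fold and Ier3 1.37-fold higher. Without YUMM1.7-EV replicate 2 the Atf3 difference moved from log2 2.58 to 4.04, and without replicate 1 to 1.85. The Ier3 difference lost its call without B16.ctr replicate 2 or without either YUMM1.7-EV library (adjusted p = 0.060 to 0.092). With the 2 library names exchanged, the same genes passed against YUMM2.1-EV in both lines, where 48.5% of all genes did in YUMM1.7-EV and 61.7% in B16.ctr. Cell line and experiment cannot be told apart in these comparisons.

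Genes of the ERK and SRF pathways were also set beside these differences. Of 12 ERK output and feedback genes (Dusp4, Dusp5 and Dusp6, which dephosphorylate ERK, the Sprouty and Spred inhibitors, the factors Etv1, Etv4 and Etv5, and Phlda1), 10 were lower and 1 was higher in B16.ctr than in YUMM2.1-EV, with a median log2 difference of -2.84 against -0.01 over all genes. Etv5 stood at a mean of 0.938 CPM in B16.ctr and 244 CPM in YUMM2.1-EV. In YUMM1.7-EV 6 of the 12 were lower and 1, Dusp5, was higher than in YUMM2.1-EV, while Egr1 was higher. Of 8 genes for SRF, its partners and the EGR corepressors, 4 were higher and none lower in YUMM1.7-EV than in YUMM2.1-EV (median 0.55, Srf itself at 80.1 against 38.8 CPM), and 3 were higher and 2 lower in B16.ctr (median 0.06). Called in YUMM1.7-EV were 58.3% of the ERK list and 50% of the SRF list, where 37.1% of all genes were. In B16.ctr the shares were 91.7% and 62.5%, where 54.3% of all genes were called. Nab2, which binds EGR proteins and restrains them, was lower in B16.ctr than in YUMM2.1-EV, at 6.24 against 73.1 CPM. Nab1 was higher there, at 73.3 against 38.4 CPM. With the names exchanged, the ERK list had 10 lower and 2 higher in B16.ctr and 7 lower and 2 higher in YUMM1.7-EV, and the SRF list 3 higher and 2 lower, and 4 higher and 2 lower. Of all genes, 61.7% then passed in B16.ctr and 48.5% in YUMM1.7-EV.

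Deletion of Bmal1 in YUMM2.1 was compared through aC3, with empty vector in both. Egr1 was at 12.5 and 9.20 CPM in YUMM2.1KO-EV, below both YUMM2.1-EV libraries. It was the only 1 of the 6 to pass (2.74-fold lower, log2 -1.45, SE 0.18, adjusted p = 0.0037), where 1.75% of all genes passed. The call was lost without YUMM2.1KO-EV replicate 2 (log2 -1.25, adjusted p = 0.079). Egr2 was at 2.66 and 2.39 CPM against 9.51 and 8.76 CPM, without overlap (log2 -1.84, SE 0.45, adjusted p = 0.081, DESeq2 0.037). With the 2 library names exchanged, both passed (Egr2 adjusted p = 0.014), where 9.76% of all genes did. Ier3, Ier5, Ier2 and Atf3 did not pass. As aC3 is 1 clone and its libraries are of another experiment, the deletion, the clone and the experiment cannot be told apart.

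In B16-F10 no gene of the 7 passed the threshold in edgeR between B16.KO and B16.ctr, where 0.44% of all genes passed. Each group is 1 clone, so the deletion and the clone cannot be told apart. Atf3 stood at 8.44 and 6.73 CPM in B16.ctr and at 2.35 and 1.53 CPM in B16.KO (log2 -1.97, SE 0.35, adjusted p = 0.14, unadjusted p = 0.0016). Of the 5 genes tested, 2 had an unadjusted p under 0.05, Atf3 and Ier5. By that p they ranked 167 and 1647 among the 14556 genes tested. DESeq2 called Atf3 (adjusted p = 0.0020), as did 3 other settings, with adjusted p of 0.0021 to 0.025. Among these was the replicate block (log2 -1.99, adjusted p = 0.025). DESeq2 called 2.96% of all genes and the block 1.71%. Egr1 was near the floor, at 18 and 24 counts in B16.ctr and 9 and 1 in B16.KO, a ratio of 4.58 with a counting interval of 2.26 to 10.2. Ier5 was at 10.3 and 11.3 CPM in B16.ctr and 14.6 and 18.6 CPM in B16.KO. With 1 library left out, log2 differences ran from -4.24 to -1.45 for Egr1 and from -1.73 to -0.39 for Ier2. They ran from 0.42 to 0.79 for Ier5 and from -2.30 to -1.71 for Atf3. The members called thus rest on which library is kept. Genes of the ATF4 stress pathway, to which Atf3 belongs, were counted beside it. Of 12, Atf5 and Trib3 were lower in B16.KO (log2 -2.18 and -1.70, adjusted p = 0.036 for both, named after their values were seen) and none was higher, with a list median of -1.10 against -0.01 over all genes.

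Ectopic Bmal1 in the native YUMM2.1 background was compared next, which asks what wild-type and DNA-binding-deficient Bmal1 do on top of the endogenous protein. YUMM2.1-WT and YUMM2.1-EV overlapped in Egr1 (28.9 and 31.1 against 31.0 and 29.1 CPM), in Egr2 (7.83 and 9.62 against 9.51 and 8.76 CPM), in Ier3, Ier5 and Atf3, and lay close in Ier2 (2.47 and 2.87 against 2.17 and 2.38 CPM). Neither any of the 7 nor any other gene passed (0% of all genes). DESeq2 also called none of the 7, and none had an unadjusted p under 0.05. With the 2 library names exchanged, Ier5 was higher in YUMM2.1-WT by 0.59 (log2, SE 0.14, adjusted p = 0.14) and Atf3 lower by 0.83 (SE 0.26, adjusted p = 0.27), while Egr1 and Egr2 differed by at most 0.08. The names therefore decide the direction for Atf3 (log2 0.03 as deposited) and for Egr2 (log2 -0.06 as deposited and 0.08 exchanged). Neither arrangement called any of the 7. Over all genes the exchange gave 101 calls, 97 of them higher in YUMM2.1-WT (0.705%), and the fit without both libraries 40 (0.269%).

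YUMM2.1-dHLH stood apart in the EGR genes. Egr2 dropped to 0.566 and 0.706 CPM (6 counts in each library), 14.1-fold below YUMM2.1-EV (log2 -3.81, SE 0.33, adjusted p = 0.0017). Egr1 was at 14.6 and 6.47 CPM, 2.79-fold lower (log2 -1.48, SE 0.33, adjusted p = 0.030). These were 2 of 6 genes tested, where 13.2% of all genes passed. Against YUMM2.1-WT, the fold changes were 13.5 for Egr2 and 2.80 for Egr1, with 13% of all genes called, and with names exchanged the log2 differences were -3.83 (adjusted p = 0.00012) and -1.48 (adjusted p = 0.0094), with 18.9% called. Both comparisons share the YUMM2.1-dHLH libraries. The Egr2 call held when any 1 library was left out (log2 -3.98 to -3.65 against YUMM2.1-EV) and with names exchanged (log2 -3.75, adjusted p = 7.2e-05). Egr1 lost its call without either YUMM2.1-EV library (adjusted p = 0.094 and 0.051) and, against YUMM2.1-WT, without either YUMM2.1-WT library (adjusted p = 0.15 and 0.11). With 1 library left out, the Egr1 log2 difference from YUMM2.1-EV ran from -2.20 (without YUMM2.1-dHLH replicate 1) to -1.04. With names exchanged it was -1.47 (adjusted p = 0.0065). With the replicate number as a block, the Egr1 difference from YUMM2.1-EV was -1.51 (SE 0.26, adjusted p = 0.0022), where 27.1% of all genes passed.

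The IER genes and Atf3 did not pass in YUMM2.1-dHLH with the names as deposited. Ier5 was higher in both libraries, at 53.6 and 46.3 CPM against 23.9 and 38.7 CPM (log2 0.70, SE 0.26, adjusted p = 0.13). Atf3 was lower in both, at 3.77 and 2.59 CPM against 8.68 and 4.54 CPM (log2 -1.03, SE 0.44, adjusted p = 0.17). With the names exchanged both passed, Ier5 at log2 0.98 (adjusted p = 0.00098) and Atf3 at log2 -1.40 (adjusted p = 0.0057). Both also passed with the replicate number as a block, Ier5 at log2 0.74 (SE 0.20, adjusted p = 0.019) and Atf3 at log2 -1.01 (SE 0.29, adjusted p = 0.028), so that 4 members were called against YUMM2.1-EV in place of 2, and 4 against YUMM2.1-WT. The share of all genes called also rose, to 28.7% against YUMM2.1-EV with names exchanged and, with the block, to 27.1% against YUMM2.1-EV and 26% against YUMM2.1-WT. The YUMM2.1-dHLH libraries disagreed in Ier2 (7.26 and 2.23 CPM) and Ier3 (208 and 347 CPM), spanning the YUMM2.1-EV values.

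Other genes of the same classes moved in YUMM2.1-dHLH. Of 34 other immediate early genes tested, 7 were higher and 4 lower than in YUMM2.1-EV, with a median log2 change of 0.08. That is 32.4% of the list, where 13.2% of all genes passed. The shares were 50% for the ERK list and 75% for the ATF4 list. Klf4, a zinc finger factor, rose from a mean of 52.8 to 408 CPM (log2 2.98, adjusted p = 0.0073), and Ptgs2 and Ccn1 rose from 0.359 to 7.06 and from 0.992 to 9.81 CPM. Dusp2 fell from 13.3 to 1.21 CPM and the nuclear receptor Nr4a1 from 53.9 to 5.15 CPM (adjusted p = 0.0033 and 0.042). ERK output genes fell in 6 of 12 and rose in none (median -0.73), among them Dusp6, from 386 to 95.5 CPM, and Etv5, from 244 to 66.5 CPM. Of 12 ATF4-pathway genes 9 rose and none fell (median 1.01), led by Chac1 (6.89 to 38.6 CPM) and Trib3 (16.2 to 71.6 CPM), although Atf3 was not among the genes that rose. The corepressor Nab1 rose from 38.4 to 72.5 CPM, the only call in the SRF list (12.5% of it, near the share of all genes). With the names exchanged, the genes of the 4 lists called as deposited (11, 6, 9 and 1) were all called in the same direction, and the counts were 13 higher and 7 lower of the 34, 8 lower of the ERK genes, 9 higher of the ATF4 genes, and 2 higher and 1 lower of the SRF genes. Of all genes, 28.7% then passed. Sox10, a marker of the melanocyte lineage, also stood lower, at 66.0 and 72.1 CPM against 504 and 485 CPM. Its part in these differences was not tested.

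Egr2 had the largest of the called changes with constructs, and its upstream sequence is shown for the motif through which SRF acts. RefSeq (GRCm38.p6) lists 5 start sites for Egr2, and 250 bases before to 50 after each were searched on both strands for the CArG box, TGANTCA (AP-1), TGACGTC (CREB and ATF), CACGTG (the E-box of Clock and Bmal1) and GCGTGGG (EGR proteins). A CArG box lay upstream of 4 of the 5 starts, a match that 1.63% of 32851 such windows held. TGACGTC followed it in 3 of these windows (3.21% of all windows), and CACGTG was in the window of the most distal start (7.15%). The windows of Ier3, Ier5 and Atf3 held none of the 5 motifs. No window was available for Egr1, Egr3 and Ier2, so their upstream sequences were not searched. A stretch of 30 bases that the windows of 3 starts share is printed first, with the CArG box and TGACGTC (read on the other strand) in capitals, then the 250 bases before another start with a second CArG box in capitals (both inside the span of the gene but in none of its annotated exons), and last the 250 bases before Ier5, shown as 1 of the 3 windows without a match. Over the groups its level had a negative correlation with that of Egr2 (r = -0.68), while Ier3 and Atf3, also without a match, had positive ones (r = 0.49 and 0.43).
Egr2, chr10:67537791-67537820, plus strand: ctcagtCCATATATGGgcagcGACGTCAcg
Egr2, chr10:67537316-67537565, plus strand: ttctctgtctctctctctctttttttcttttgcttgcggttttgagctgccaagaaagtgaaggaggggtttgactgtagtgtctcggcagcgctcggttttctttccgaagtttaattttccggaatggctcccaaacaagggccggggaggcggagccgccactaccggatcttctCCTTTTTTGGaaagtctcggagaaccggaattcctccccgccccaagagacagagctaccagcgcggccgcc
Ier5, chr1:155099637-155099886, minus strand: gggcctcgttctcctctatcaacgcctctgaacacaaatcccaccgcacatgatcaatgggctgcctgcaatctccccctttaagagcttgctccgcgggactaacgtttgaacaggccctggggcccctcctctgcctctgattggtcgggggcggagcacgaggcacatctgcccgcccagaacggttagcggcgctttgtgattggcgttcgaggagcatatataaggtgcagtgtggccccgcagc
These matches are letters in a window, and binding was not measured in these libraries.

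Constructs in the Bmal1-null clone aC3 gave another picture. Egr2 was similar in all 3 groups, from 1.65 to 3.02 CPM. Egr1 stood at 14.7 and 14.7 CPM in YUMM2.1KO-WT, at 12.5 and 9.20 CPM with empty vector and at 7.87 and 7.32 CPM in YUMM2.1KO-dHLH, in that order and without overlap. Against empty vector neither change passed (log2 0.43, SE 0.20, adjusted p = 0.19, and log2 -0.52, SE 0.21, adjusted p = 0.13). Between the constructs, YUMM2.1KO-WT was 1.93-fold higher than YUMM2.1KO-dHLH (log2 0.95, SE 0.21, adjusted p = 0.048), the 1 of 6 genes to pass where 0.877% of all genes did. This call was lost when any 1 of the 4 libraries was left out (adjusted p = 0.074 to 0.27).

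Ier3 rose with both constructs in aC3. It was at 263 and 267 CPM with empty vector, 384 and 385 CPM in YUMM2.1KO-WT (1.44-fold, log2 0.53, SE 0.08, adjusted p = 0.0011) and 325 and 348 CPM in YUMM2.1KO-dHLH (1.26-fold, log2 0.33, SE 0.08, adjusted p = 0.019). Ier5 fell with dHLH-Bmal1 from 31.2 and 28.8 to 22.7 and 19.9 CPM (1.41-fold, log2 -0.50, adjusted p = 0.020), and stood at 25.5 and 26.7 CPM with WT-Bmal1. Atf3 lay at 10.2 and 9.66 CPM with empty vector, 11.9 and 13.9 CPM with WT-Bmal1 and 10.7 and 12.8 CPM with dHLH-Bmal1, and Ier2 at 3.02 and 3.59, 1.61 and 1.74, and 1.07 and 2.12 CPM, none of these past the threshold. Thus 1 gene passed with WT-Bmal1 and 2 with dHLH-Bmal1, where 11.2% and 10.9% of all genes did, and both comparisons share the empty vector libraries. Without either empty vector library both dHLH calls were lost (adjusted p = 0.091 to 0.16), and that of Ier5 also without YUMM2.1KO-dHLH replicate 2 (adjusted p = 0.064). Of 33 other immediate early genes, Fos, Nr4a2 and Klf4 rose with WT-Bmal1 and Fosl1, Ier5l, Fosl2 and Mcl1 fell, Fosl1 from 69.7 to 25.6 CPM. That is 21.2% of the list, where 11.2% of all genes passed. Among the ERK output genes Spry1 (3.49 to 13.6 CPM), Etv5 and Etv1 rose and Dusp5 fell (33.3% of that list).

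In YUMM1.7 none of the genes passed with either construct. WT-Bmal1 left Egr1 at 50.6 and 50.1 CPM and dHLH-Bmal1 at 40.9 and 45.4 CPM, against 54.7 and 51.3 CPM with empty vector. The dHLH groups lay below both others without overlap (log2 -0.30 against empty vector, SE 0.09, adjusted p = 0.21). Ier3 was also lowest there, at 75.3 and 73.4 against 86.1 and 83.8 CPM (log2 -0.19, SE 0.07, adjusted p = 0.32). Ier5 ranged from 100.5 to 113 CPM. In edgeR 0.138%, 0.63% and 2.57% of all genes passed for WT against EV, dHLH against EV and dHLH against WT, and DESeq2 called none of the 7 in any of these. Unadjusted p was under 0.05 for 0, 2 and 2 of the 5 tested, a count not taken over all genes.

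The test of the difference between cells bears on this contrast. The dHLH effect on Egr2 differed between aC3 and YUMM2.1 by 3.69 (log2, SE 0.64, adjusted p = 0.00095), and those on Ier5 (-1.19, SE 0.26, adjusted p = 0.0060) and Ier2 (-2.15, SE 0.66, adjusted p = 0.039) also differed, 3 of 6 genes where 15.5% of all genes passed. The Ier2 difference was lost without any 1 of 6 of the 8 libraries, YUMM2.1-dHLH replicate 1 among them (log2 -1.05, adjusted p = 0.27). Between YUMM1.7 and YUMM2.1 the dHLH effect differed for Egr1 (1.18, SE 0.31, adjusted p = 0.021), with 12.4% of all genes called, and for Egr2 (5.23, SE 1.00, adjusted p = 0.0030), which rests on at most 8 counts a library in YUMM1.7. Without YUMM1.7-dHLH replicate 2 both were lost (adjusted p = 0.078 and 0.099), and that of Egr1 also without either YUMM1.7-EV library (adjusted p = 0.056 and 0.084). Without YUMM2.1-dHLH replicate 1 the Egr1 difference was 1.90 and without replicate 2 it was 0.74. That of Egr2 was 8.85 without YUMM1.7-EV replicate 1, which held all of the counts of that group, and 4.31 without replicate 2. With the library names exchanged, Egr1 and Atf3 also differed between aC3 and YUMM2.1 (5 of 6 genes, where 23.6% of all genes passed) and Ier5 between YUMM1.7 and YUMM2.1 (log2 -0.99, adjusted p = 6.4e-05, 20.6% of all genes). For WT-Bmal1 no difference of the 6 genes passed in edgeR (0.208% of all genes between aC3 and YUMM2.1, 0% between YUMM1.7 and YUMM2.1). Unadjusted p, not counted over all genes, was under 0.05 for 1 gene in each, and DESeq2 called none. With the names exchanged, the WT effect on Ier5 differed from that in YUMM2.1 in both (log2 -0.79, adjusted p = 0.0042, in aC3, and -0.68, adjusted p = 0.023, in YUMM1.7), with 7.58% and 1.25% of all genes called.

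**Figure D2:**
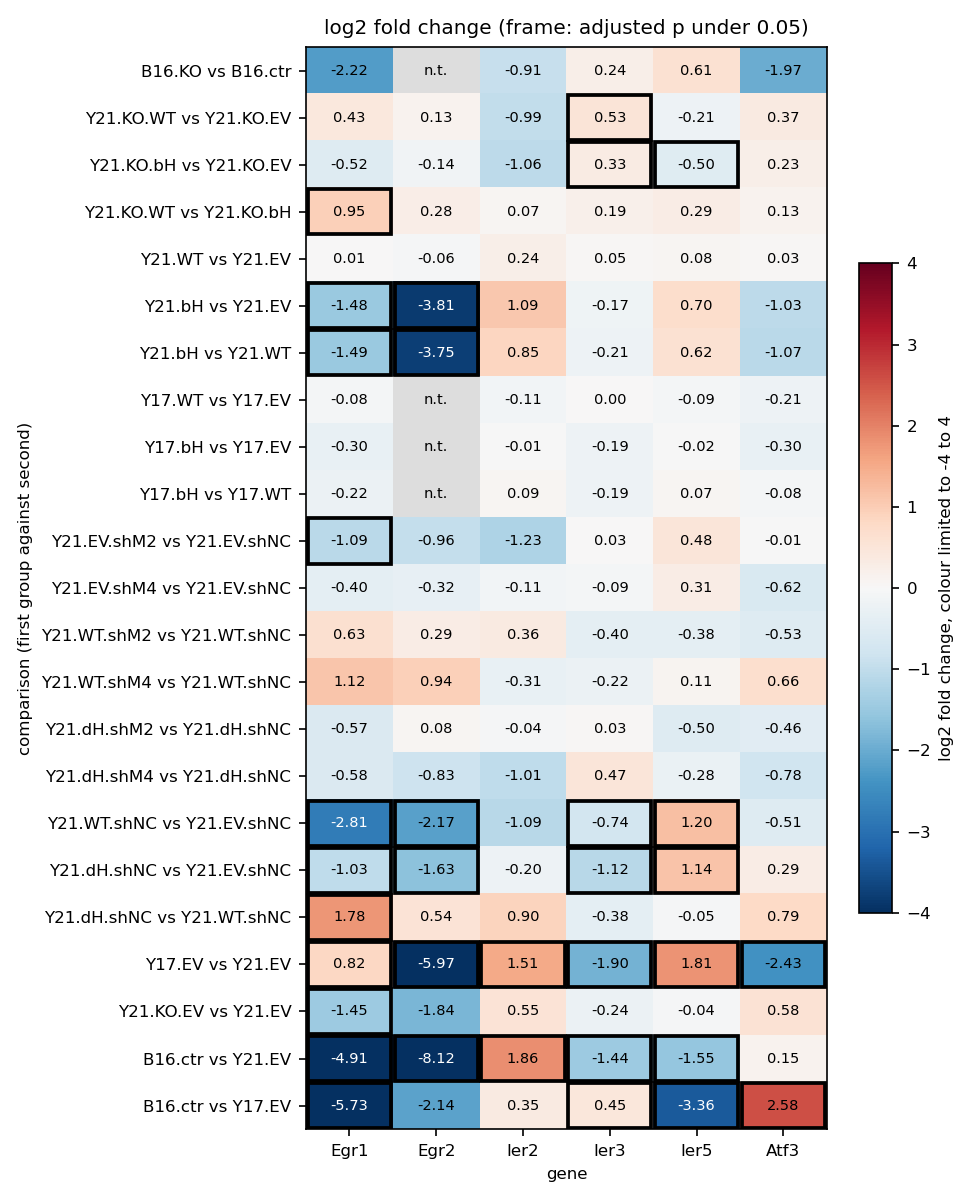
Log2 fold change (colour and number) of 6 genes (columns) in 23 comparisons of groups (rows), first group against second. A black frame marks an adjusted p under 0.05, n.t. marks genes under the filter on low counts, and fitted values for Egr2 in B16-F10 and YUMM1.7 rest on 0 to 8 counts a library.

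In the hairpin cells, hairpin virus had been put into the YUMM2.1 lines that carry the 3 constructs, so both sets of libraries go back to the same construct lines. With the control hairpin, 4 of 6 genes passed in YUMM2.1-WT shNC against YUMM2.1-EV shNC, where 22.3% of all genes did. Egr1 was at 3.68 and 5.61 CPM against 30.8 and 34.4 CPM, the largest change of the 4 (log2 -2.81, SE 0.27, adjusted p = 7.7e-07). Egr2 was at 1.36 and 0.597 against 4.40 and 4.37 CPM (log2 -2.17, SE 0.59, adjusted p = 0.013). Ier3 was 1.67-fold lower, at 168 and 202 against 290.1 and 324 CPM (adjusted p = 0.0020), and Ier5 2.29-fold higher, at 70.9 and 103 against 36.2 and 39.4 CPM (adjusted p = 9.7e-05). Ier2 and Atf3 did not pass.

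The same 4 genes passed in YUMM2.1-dHLH shNC, where 26.4% of all genes did. Egr1 was 2.04-fold lower (17.3 and 14.3 CPM, log2 -1.03, SE 0.24, adjusted p = 0.0034). Egr2 was 3.09-fold lower (adjusted p = 0.037), Ier3 2.17-fold lower (140.1 and 143 CPM, adjusted p = 3.3e-05) and Ier5 2.21-fold higher (83.0 and 84.2 CPM, adjusted p = 0.00010). Both comparisons share the YUMM2.1-EV shNC libraries. Set against each other, YUMM2.1-dHLH shNC held 3.42-fold more Egr1 than YUMM2.1-WT shNC (log2 1.78, SE 0.27, adjusted p = 0.0014), the 1 of 6 genes that passed (1.91% of all genes), while Ier3 and Ier5 did not differ past the threshold. Egr2, with 5 to 39 counts a library here, lost its call against YUMM2.1-EV shNC in 3 of 4 leave-outs for WT-Bmal1 (adjusted p up to 0.15) and in 4 of 4 for dHLH-Bmal1 (adjusted p = 0.080 to 0.22). Without YUMM2.1-WT shNC replicate 1 it was at log2 -2.86 and without replicate 2 at -1.68. The other 3 genes kept their calls.

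Levels of Egr1 with WT-Bmal1 thus lay with empty vector in the cells without a hairpin and below it in those with shNC. The 2 sets were fitted apart, and the difference between them was not tested. Sox10 moved along, at 327 and 334 CPM in YUMM2.1-EV shNC, 99.0 and 100.3 CPM in YUMM2.1-WT shNC and 22.7 and 26.1 CPM in YUMM2.1-dHLH shNC. Its order there, EV above WT above dHLH, is not that of Egr1, which was lowest with WT-Bmal1. The endothelial marker Cdh5 moved too, at 3.55 and 2.13 CPM in YUMM2.1-EV shNC, 13.0 and 11.8 CPM in YUMM2.1-WT shNC, 8.05 and 7.95 CPM in YUMM2.1-dHLH shNC and 9.06 and 11.1 CPM in YUMM2.1-EV shM2. Its sum with Pecam1 was 7.96 to 9.91, 21.01 to 21.3, 14.5 to 16.6 and 16.6 to 18.6 CPM in these groups. The part of Sox10 and Cdh5 in the differences was not tested.

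The same gene lists were counted in these cells. ERK output genes were lower in 8 of 12 with WT-Bmal1 (median -0.80) and in 8 of 12 with dHLH-Bmal1 (median -0.93), none higher. That is 66.7% of the list for each construct, where 22.3% and 26.4% of all genes passed. Dusp6, an ERK phosphatase that is itself an ERK target, went from 237 CPM to 58.4 and 59.1 CPM. Of 36 other immediate early genes, 8 were higher and 8 lower with WT-Bmal1 (44.4%), and 10 higher and 8 lower with dHLH-Bmal1 (50%). Klf4 rose from 99.7 to 556 and 669 CPM, Nr4a1 fell from 19.7 to 2.56 and 1.74 CPM, and Dusp2 from 15.8 to 2.25 and 1.38 CPM. ATF4-pathway genes were higher in 6 of 12 for each construct, led by Atf5, from 75.6 to 205 and 256 CPM, and 1, Cdkn1a, was lower with WT-Bmal1. That is 58.3% of the list with WT-Bmal1 and 50% with dHLH-Bmal1. Of the 8 genes for SRF, its partners and the EGR corepressors, 2 were higher and 1 lower with WT-Bmal1 (37.5%). With dHLH-Bmal1 3 were higher and 1 lower (50%). Nab1 was higher with both constructs. Srf was at 33.6 CPM with empty vector, 45.4 CPM with WT-Bmal1 (adjusted p = 0.12) and 59.5 CPM with dHLH-Bmal1 (adjusted p = 0.0032), and its difference between the constructs did not pass (log2 0.40, adjusted p = 0.37).

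**Figure D3:**
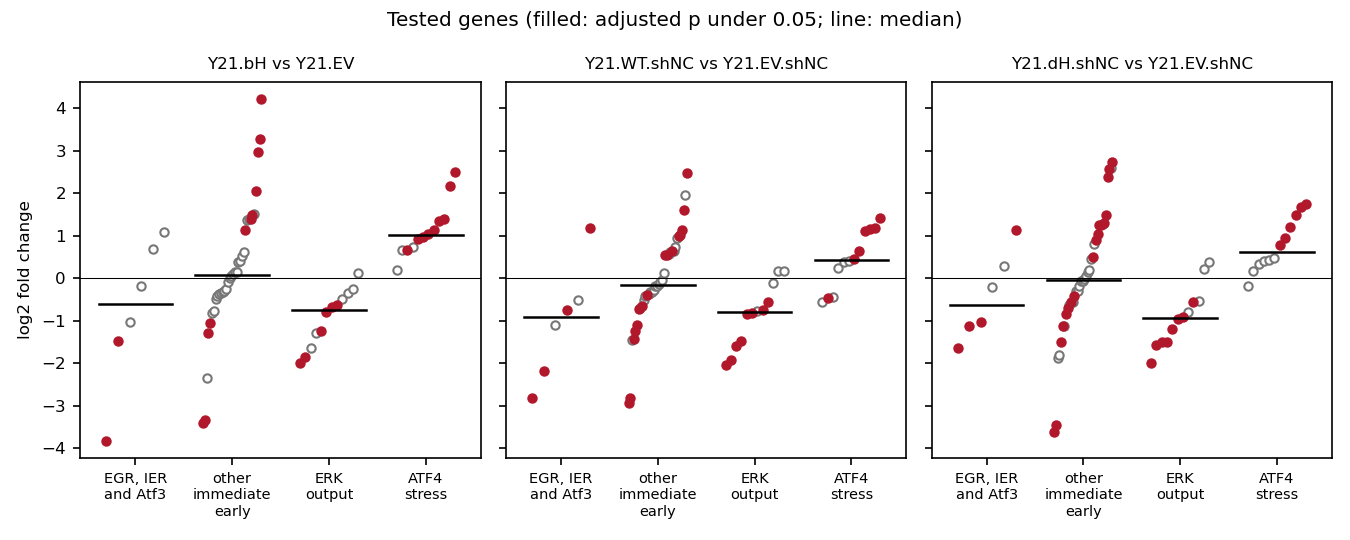
Log2 fold change (vertical axis) of each tested gene in 4 lists, for YUMM2.1-dHLH against YUMM2.1-EV (left) and for WT-Bmal1 and dHLH-Bmal1 against empty vector in shNC cells (middle and right). Filled points have an adjusted p under 0.05 and lines are medians. ERK output genes lie mostly below 0 and ATF4-pathway genes mostly above it in all 3 panels, while the EGR, IER and Atf3 genes lie on both sides.

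Lowering Myh9 was compared within each construct. In YUMM2.1-EV cells shM2 took Egr1 from 30.8 and 34.4 to 16.4 and 14.3 CPM (2.13-fold lower, log2 -1.09, SE 0.24, adjusted p = 0.0097), the 1 of 6 genes to pass, where 6.65% of all genes did. Without YUMM2.1-EV shNC replicate 2 or either shM2 library the call was lost (adjusted p = 0.063 to 0.096), at log2 -1.18 to -1.01. Egr2 (2.40 and 2.1 against 4.40 and 4.37 CPM, log2 -0.96, adjusted p = 0.32) and Ier2 (2.26 and 4.2 against 7.71 and 7.62 CPM, log2 -1.23, adjusted p = 0.19) were also lower in both libraries. Ier5 was higher in both (57.4 and 48.4 CPM, log2 0.48, adjusted p = 0.13). With shM4, which lowered Myh9 less, Egr1 was at 25.8 and 24.3 CPM (log2 -0.40, SE 0.23, adjusted p = 0.60) and none of the 6 passed, had an unadjusted p under 0.05 or was called by DESeq2 (1.71% of all genes in edgeR). Klf4 rose with shM2 (99.7 to 274 CPM), as did 5 of 12 ATF4-pathway genes, and Phlda1 and Nr4a1 fell. Of the ATF4 list 41.7% passed, of the other immediate early genes 13.9% and of the ERK list 8.33%, where 6.65% of all genes did. Sox10 was at 194 and 179 CPM with shM2.

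With WT-Bmal1, Egr1 was higher and not lower with the Myh9 hairpins, without a call in edgeR. It was at 8.44 and 6.03 CPM with shM2 and 8.95 and 11 CPM with shM4, above 3.68 and 5.61 CPM with shNC (log2 0.63, SE 0.28, adjusted p = 0.23, and log2 1.12, SE 0.28, adjusted p = 0.097). DESeq2 called the latter (adjusted p = 0.025). No gene of the 6 passed in edgeR with either hairpin (4.76% and 0.236% of all genes), with 3 and 1 under an unadjusted p of 0.05. Unadjusted counts were not taken over all genes. The test of the difference was past the threshold for shM2: its effect on Egr1 in YUMM2.1-WT was above that in YUMM2.1-EV by 1.72 (log2, SE 0.37, adjusted p = 0.011), 1 of 6 genes where 5.18% of all genes passed. It was lost without YUMM2.1-WT shNC replicate 1 or shM2 replicate 1 (adjusted p = 0.056 and 0.075). For shM4 the difference was 1.52 (SE 0.37, adjusted p = 0.073, 0.741% of all genes), with 2 of 6 genes under an unadjusted p of 0.05 and 1 called by DESeq2. The 2 differences share their shNC libraries.

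In YUMM2.1-dHLH Egr1 was at 7.42 and 13.2 CPM with shM2 and 10.2 and 10.9 CPM with shM4, below 17.3 and 14.3 CPM with shNC, without a call (log2 -0.57 and -0.58, adjusted p = 0.43 and 0.15). Ier3 was higher with shM4, at 174 and 216 against 140.1 and 143 CPM, and lay at the threshold (log2 0.47, SE 0.16, adjusted p = 0.051). DESeq2 called it (adjusted p = 0.015). None of the 6 passed in edgeR with shM2 or shM4 (0.559% and 15.1% of all genes). In each, 2 had an unadjusted p under 0.05, not counted over all genes, and DESeq2 called none with shM2. Ier5 was lower with shM2 in dHLH cells (70.9 and 49.8 against 83.0 and 84.2 CPM) and higher in EV cells, neither past the threshold, and the 2 effects differed by -0.98 (SE 0.25, adjusted p = 0.039, 3.29% of all genes). This was lost without any 1 of 7 of the 8 libraries. For shM4 and dHLH no gene differed past the threshold in edgeR or DESeq2 (8.51% of all genes in edgeR), with 2 under an unadjusted p of 0.05.

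**Figure D4:**
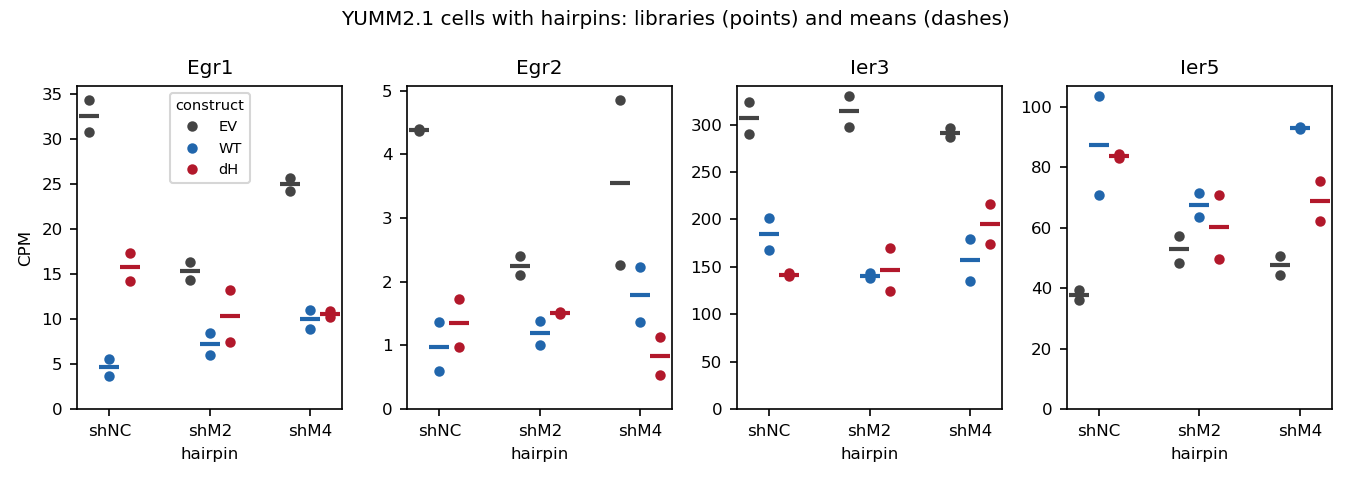
CPM (vertical axes, linear from 0) of Egr1, Egr2, Ier3 and Ier5 in YUMM2.1 with empty vector, WT-Bmal1 or dHLH-Bmal1 (colours) and the control hairpin shNC or the Myh9 hairpins shM2 and shM4 (horizontal axis), 2 libraries each with their mean. Egr1 spans 3.68 to 34.4 CPM, with the EV libraries at 14.3 CPM or more and the WT libraries at 11 CPM or less.

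Within experiments, Egr1 and Egr2 had negative correlations with Ier5 over the groups. Over group means of log2 CPM, after the mean of each of 5 experiments was subtracted, Pearson's r was 0.72 between Egr1 and Egr2, -0.74 between Egr1 and Ier5, -0.68 between Egr2 and Ier5, -0.67 between Ier3 and Ier5 and 0.53 between Egr1 and Ier3. Atf3 had r of 0.61 with Egr1 and 0.03 with Ier3. The opposite signs do not hold between lines, where Egr1 and Ier5 were both higher in YUMM1.7-EV and both lower in B16.ctr than in YUMM2.1-EV, nor in aC3, where both were lower with dHLH-Bmal1 than with empty vector (log2 -0.52, not called, and -0.50). These are descriptions over 20 groups that share libraries' depth and cell line, and 9 of the groups are the hairpin set. In the order of group means, Egr1 led in the 3 YUMM1.7 groups (53.0, 50.3 and 43.1 CPM), which did not overlap, and was lowest in B16.ctr and B16.KO. Of 19 neighbours in that order, 10 did not overlap for Egr1, 7 for Ier5, 5 for Ier3 and 2 each for Egr2, Ier2 and Atf3. The same count was not taken over all genes, so these numbers describe the members only. Neighbours overlapped for each of these genes, so the order is not fully resolved for any, and least for the last 3. It also mixes cell lines and experiments.

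Among 10668 genes with a mean of at least 5 CPM, those most like Egr1 by this measure were Adam10 (r = 0.89), Txnip (0.89) and Bag5 (0.89). Egr2 was most like Ttyh2 (0.92), Acvr2a (0.91) and Gm37718 (0.91), and Ier3 like Mical2 (0.94), Zfp326 (0.90) and Limch1 (0.90). For Ier5 they were Nr2f1 (0.94), Cit (0.93) and Ralgps2 (0.91), for Atf3 Smarcc2 (0.88), Trim7 (0.86) and Rbms3 (0.84), and for Ier2 Prkrip1 (0.90), Gm16286 (0.89) and Gm15500 (0.89). Egr3 had too few counts for such a measure. No member of the 7 was among the 3 genes most like another. Egr2, Egr3 and Ier2 were under a mean of 5 CPM and could not have been.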

How the data were processed

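RNA of cultured cells was sequenced in 40 libraries from transcript 3′ ends (QuantSeq FWD, single reads). The authors aligned reads to mm10 with bowtie2 and deposited RSEM estimated counts per Ensembl gene as whole-number counts (RSEM 1.2.3 per the submitters' processing notes, which also name DESeq2; the methods name another RSEM version). The strand setting and the Ensembl release are not given in the sources used here. Libraries were grouped by their GEO titles. The genotypes of the lines are not reported here in full.

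From the counts, edgeR 4.0.16 (R 4.3.3) fitted 1 quasi-likelihood model per experiment, with TMM scaling and filterByExpr, and 1 model over the control groups for the comparisons of lines. p-values were Benjamini-Hochberg adjusted over all genes tested, and called at 0.05. Counts of members under an unadjusted p of 0.05 were not taken over all genes and describe the members only. SE is the log2 fold change divided by the root of F. With 2 libraries a group, a two-sided permutation test cannot go under p = 0.333. Totals of 3643332 to 22970049 counts mean that a gene at 1 CPM had few counts in the shallow libraries; intervals on ratios of counts are exact binomial (95%), for counting error only.

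The members and gene lists were chosen with earlier results of these data known. Named beside the members are Arntl and Myh9, up to 3 called genes a list and direction in comparisons that called a member, and the 3 genes most alike by Pearson's r (mean of at least 5 CPM, prior count 2); exceptions are said. Alternatives were DESeq2 1.42.0, its size factors, no filter, a replicate block, 1 fit of all 40 libraries, exchanged library names and leaving out each library; the gene lists with exchanged names were added after seeing the data. Same-numbered libraries deviated together in YUMM2.1 (mean correlation 0.486 over 3 pairs of groups), and less in B16-F10 (0.191) and aC3 (0.154). On average they did not in YUMM1.7 (0.00248, pairs from -0.129 to 0.168) or the hairpin set (-0.00215). The 36 hairpin pairs ran from -0.347 to 0.452, so some groups deviated together and some oppositely. The labels do not say what a number shares. Every YUMM2.1 pair was above 0.1 (0.285 to 0.628), as was the 1 pair of B16-F10 (0.191). A replicate block was fitted as an alternative, and the main values are without it. Blocked values stand beside the results they change. Whether the numbers pair the libraries is not known. Motifs were searched in RefSeq promoter windows of 300 bases (GRCm38.p6). The scripts were tested on simulated counts.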

Additional observations from a re-analysis of the deposited data

Results flagged for a closer look

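For 7 results the effect of a construct or hairpin differed between cells, by an edgeR interaction term for the difference itself, adjusted over all genes. Each is a difference of log2 fold changes.

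With dHLH-Bmal1, the effect on Egr2 in aC3 was above that in YUMM2.1 by 3.69 (SE 0.64, adjusted p = 0.00095). Group means were 2.31 CPM with dHLH-Bmal1 and 2.53 CPM with empty vector in aC3, against 0.636 and 9.14 CPM in YUMM2.1. In the same contrast, the effect on Ier2 differed by -2.15 (SE 0.66, adjusted p = 0.039) and that on Ier5 by -1.19 (SE 0.26, adjusted p = 0.0060). Of all genes, 15.5% passed in it. With 1 library left out, the Ier2 difference ran from -2.73 to -1.05 and, as given above, lost its call in most of these fits. Ier5 stood at 21.3 against 30.01 CPM in aC3 and at 49.9 against 31.3 CPM in YUMM2.1.

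Between YUMM1.7 and YUMM2.1, the dHLH effect differed by 1.18 for Egr1 (SE 0.31, adjusted p = 0.021) and by 5.23 for Egr2 (SE 1.00, adjusted p = 0.0030), the latter with 0 to 8 counts a library in YUMM1.7. Of all genes, 12.4% passed. With 1 library left out, the differences ran from 0.74 to 1.90 and from 4.31 to 8.85. As given above, neither kept its call without YUMM1.7-dHLH replicate 2. These contrasts share the YUMM2.1-dHLH and YUMM2.1-EV libraries, and the line cannot be told apart from the experiment.

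In the hairpin cells, the effect of shM2 on Egr1 was above that in YUMM2.1-EV by 1.72 in YUMM2.1-WT (SE 0.37, adjusted p = 0.011), and its effect on Ier5 was below that in YUMM2.1-EV by -0.98 in YUMM2.1-dHLH (SE 0.25, adjusted p = 0.039). Both use the same YUMM2.1-EV libraries with shNC and shM2. Of all genes, 5.18% and 3.29% passed in these contrasts. With 1 library left out, the Egr1 difference ran from 1.46 to 2.08 and the Ier5 difference from -1.24 to -0.71. As given above, the Egr1 call was lost in some of these fits and the Ier5 call in most. The Ier5 call was also lost with the replicate block (adjusted p = 0.051).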

How the results depend on the processing

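Over settings other than leaving out a library, 216 of 223 values of called genes stayed past the threshold and 7 lost their call, and 126 of 160 counts of called members stayed within 1.5 times the reported count. With a library left out, 146 of 192 values of called genes stayed past the threshold and 46 lost their call. No called value changed direction in either. The cause of each change below was not tested.

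In B16-F10, DESeq2, no filter and the replicate block each called 1 member in place of 0 (Atf3, log2 -1.99, adjusted p = 0.025 with the block) and 1 fit of all 40 libraries called 3. Of all genes, 2.96%, 2.06%, 1.71% and 11.7% passed in these fits, in that order, against 0.44% in the main fit. The fit of all 40 libraries called 0 in each aC3 comparison, where 1, 2 and 1 were called (Ier3 adjusted p = 0.14 with WT-Bmal1). Its share of all genes was 2.35%, 0.963% and 0.108%, against 11.2%, 10.9% and 0.877% in the main fit. DESeq2 called 1 of the 2 with dHLH-Bmal1 (7.79% of all genes). For YUMM2.1-dHLH against YUMM2.1-EV, no filter, the replicate block and exchanged names each called 4 in place of 2, and without both of the libraries in doubt 3 were called. Against YUMM2.1-WT, no filter and the block called 4 in place of 2, and 2 were called without both. The block brought in Ier5 (log2 0.74, adjusted p = 0.019) and Atf3 (log2 -1.01, adjusted p = 0.028) against YUMM2.1-EV. Against YUMM2.1-EV, no filter called 13.6% of all genes, the block 27.1% and exchanged names 28.7%, where the main fit called 13.2%. Against YUMM2.1-WT, no filter called 13% and the block 26%, where the main fit called 13%. For aC3 against YUMM2.1 with empty vector, DESeq2, no filter, all 40 libraries and exchanged names called 2 in place of 1. Of all genes they called 2.79%, 3.88%, 2.48% and 9.76%, against 1.75%. Without a filter, shM2 in EV cells gave 3 in place of 1 and shM2 in WT cells 1 in place of 0. The share of all genes was then 6.22% (against 6.65%) and 4.01% (against 4.76%). For shM4, DESeq2 and no filter gave 1 in place of 0 in WT and in dHLH cells, as did DESeq2's size factors in dHLH cells. In WT cells DESeq2 and no filter called 1.68% and 1.23% of all genes, against 0.236%. In dHLH cells DESeq2, no filter and DESeq2's size factors called 16.6%, 10.7% and 15.3%, against 15.1%. Of the differences between effects, shM2 with WT-Bmal1 gave 2 in place of 1 with DESeq2 and no filter. Of all genes 6.61% and 5.3% passed, against 5.18%. For shM4 with WT-Bmal1 both gave 1 in place of 0 (1.33% and 1.28%, against 0.741%). With no filter, shM4 with dHLH-Bmal1 gave 1 in place of 0 (7.42%, against 8.51%). With the block, shM2 with dHLH-Bmal1 gave 0 in place of 1 (Ier5 log2 -0.98, adjusted p = 0.051), and 2.91% of all genes passed, against 3.29%. For dHLH-Bmal1 in aC3 against YUMM2.1, no filter gave 6 and exchanged names 5 in place of 3. Of all genes 11.1% and 23.6% passed, against 15.5%. For WT-Bmal1 exchanged names gave 1 in place of 0 in aC3 and in YUMM1.7. The share of all genes was then 7.58% (against 0.208%) in aC3 and 1.25% (against 0%) in YUMM1.7.

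Direction was followed for the called values and for a set of uncalled ones. Among these, only Atf3 and Ier5 changed direction, both uncalled, for YUMM2.1-WT against YUMM2.1-EV. Egr2, uncalled there and outside that set, moved from log2 -0.06 to 0.08 with names exchanged and to 0.01 without both libraries. Atf3 was at log2 -0.83 with names exchanged, -0.78 without both libraries and -0.39 to 0.59 with 1 left out. Ier5 was at -0.23 to 0.45 with 1 left out and at 0.68 without both.

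With each library left out in turn, the members called ranged from 0 to 5 in B16-F10, 0 to 2 and 0 to 0 in aC3 for dHLH-Bmal1 against empty vector and WT against dHLH, 1 to 2 for YUMM2.1-dHLH against either group, 0 to 1 for shM2 in EV cells and shM4 in dHLH cells, 3 to 4 and 3 to 3 for WT-Bmal1 and dHLH-Bmal1 with shNC, 0 to 1 for aC3 against YUMM2.1, 3 to 4 for B16.ctr against YUMM1.7, 0 to 1 for both called hairpin differences, and 2 to 4 and 0 to 4 for the dHLH differences of aC3 and YUMM1.7 from YUMM2.1. A fit that leaves 1 library in a group assumes that it varies like the others. The share of all genes called was not counted in these fits, so the ranges describe the members only. The replicate block moved no other count of called members by over 1.5 times. Depth limits Egr2 and Egr3 most, as their counts were at or near 0 in many libraries.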
